A study of Mus musculus with 33 samples.

Results

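Ptgs2, Ptges and Nos2 encode inducible enzymes of prostaglandin and nitric oxide synthesis. The genes were taken by their symbols in the annotation of the array probes, and were 3 of 16593 genes with a named probe on the macrophage arrays and 3 of 15967 on the fibroblast arrays. All 3 had a probe above background on at least 2 arrays of either cell type, and so were among the 9161 genes tested in macrophages and the 9109 tested in fibroblasts. RNA came from bone marrow-derived macrophages (BMDM, 23 arrays) and from primary mouse embryonic fibroblasts (MEF, 10 arrays), all of strain C57BL/6. The macrophages were deficient in p50, a subunit of NF-kB (p50KO, 10 arrays), lacked the receptor of type I interferons (IFNARKO, 2 arrays) or were wild type (WT, 11 arrays). The p50KO and WT macrophages were taken at 0 h, here called unstimulated, or after 1, 3 or 8 h with lipopolysaccharide (LPS, a bacterial cell wall component that acts through TLR4), CpG DNA (which acts through TLR9) or interferon beta (IFNb), and the IFNARKO macrophages at 0 h or after 3 h with LPS. The fibroblasts were p50KO (4 arrays, unstimulated or with LPS for 1, 3 or 8 h) or WT (6 arrays, the same conditions, a second unstimulated array and IFNb for 8 h). A genotype had 1 array in a condition, apart from unstimulated WT cells of either type with 2. The labels name no driver, clone or pool of animals for either knockout, and give no dose of any agent. Nothing in them states that separate cultures or animals were used, and the p-values therefore reflect the spread of these samples alone, which may be technical.

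Prostaglandin synthesis starts from arachidonic acid, which cyclooxygenases turn into prostaglandin H. Ptgs2 is the inducible cyclooxygenase, switched on in macrophages and fibroblasts by microbial products, and Ptges is the inducible microsomal synthase that turns prostaglandin H into prostaglandin E, a mediator of fever, pain and blood flow. Nos2 is the inducible nitric oxide synthase. It makes nitric oxide from arginine with tetrahydrobiopterin as a cofactor, and in mouse macrophages it is a classical product of activation by LPS and interferons, with a part in killing intracellular microbes. The comparisons ask how p50, which lacks a transactivation domain and can hold genes back as a homodimer, and the interferon receptor bear on these genes.

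In the GRCm38.p6 assembly Ptgs2 lies at chr1:150100031-150108234, Ptges at chr2:30889471-30931020 and Nos2 at chr11:78920787-78960226. The promoters of both prostaglandin genes are shown, as no promoter was matched for Nos2. The sequences are RefSeq's, 250 bases before to 50 after the start that RefSeq's promoter set uses, 5′ to 3′ on the gene's strand. That of Ptgs2 is chr1:150099781-150100080 on the plus strand, and that of Ptges is chr2:30903248-30903547 on the minus strand, where the start lies inside the annotated gene rather than at its first base. Promoters were matched for 2 of the 3 genes. Capitals mark matches to the motifs named after them.
Ptgs2: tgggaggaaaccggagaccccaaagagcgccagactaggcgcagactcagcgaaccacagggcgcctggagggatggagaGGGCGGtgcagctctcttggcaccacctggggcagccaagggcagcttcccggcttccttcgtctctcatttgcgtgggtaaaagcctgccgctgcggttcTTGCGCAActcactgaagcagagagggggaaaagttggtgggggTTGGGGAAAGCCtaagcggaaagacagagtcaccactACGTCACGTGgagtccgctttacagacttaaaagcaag
Ptges: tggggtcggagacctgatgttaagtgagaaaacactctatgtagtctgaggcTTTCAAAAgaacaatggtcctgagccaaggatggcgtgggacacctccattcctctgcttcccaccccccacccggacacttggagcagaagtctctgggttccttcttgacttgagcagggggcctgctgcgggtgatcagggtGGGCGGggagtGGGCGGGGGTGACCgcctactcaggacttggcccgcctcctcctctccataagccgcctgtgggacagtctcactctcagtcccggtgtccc

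The motifs searched on both strands were NF-kB (GGG and CC with 5 bases of any kind between them), the ISRE core (GAAA and GAAA with 2 bases of any kind between them), GAS TTCNNNGAA, AP-1 TGANTCA, CRE TGACGT, C/EBP TTNNGNAA, E-box CACGTG, Egr GCGNGGGCG, GC box GGGCGG and TATA box TATAAA. With that start as position 1 and no position 0, the Ptgs2 window held an NF-kB match at -23 to -14 that overlapped a C/EBP match at -25 to -18. It also held a C/EBP match at -69 to -62 that reads the same on both strands, a GC box at -170 to -165, and a CRE at 13 to 18 that overlapped an E-box at 17 to 22. The Ptges window held an NF-kB match at -38 to -29, GC boxes at -53 to -48 and -42 to -37, of which the second overlapped the NF-kB match, and a C/EBP match at -198 to -191. These letters are common: of 32851 promoters of the same length, 50.8% held the NF-kB motif, 40.7% the C/EBP motif and 35.7% the GC box, against 7.51% for the CRE and 7.15% for the E-box. The ISRE core (3.44% of promoters), GAS (8.30%), AP-1 (7.81%), Egr (5.55%) and TATA (13.6%) motifs matched neither window.

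Levels are normalized log2 intensities on single-colour bead arrays, and a probe was called above background at a detection p under 0.01. In macrophages Ptges had probes ILMN_2786442 and ILMN_2616028, Ptgs2 had ILMN_1231600 and ILMN_2717913, and Nos2 had ILMN_1223499. The brightest probe stood for each gene, the first named in each case. The second Ptgs2 probe was above background on 0 of 23 macrophage and 0 of 10 fibroblast arrays. Levels are not compared between probes, and the fibroblast arrays, on which Ptgs2 was read by ILMN_2735326 and Ptges by ILMN_2616028, were normalized apart from the macrophage arrays.

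Summed intensity ran from 7432998 to 15018124 and probes above background from 10456 to 12273 on the macrophage arrays. Sample titles name an agent for each array and no batch, and the macrophage arrays labelled LPS or IFNb were grouped here as 1 series. The CpG series (8 arrays, with its own unstimulated WT and p50KO arrays) was brighter than this LPS and IFNb series. The only unstimulated p50KO macrophage array belonged to the CpG series, so every LPS response of p50KO macrophages is set against an array of another series. Macrophage markers were above background on all macrophage arrays (5 of 5 with a probe) and 6 of 8 fibroblast markers on none. All 8 fibroblast markers were above background on all fibroblast arrays, but so were the macrophage markers Adgre1, Cd14 and Lyz2 (3 of 5 with a probe). Itgam was not above background on any fibroblast array. The p50KO labels were not checked against the gene of p50 itself, which is not used here. One macrophage array stood apart from its label: in 12 immediate-early genes, the root mean square distance of the array labelled p50KO, LPS 1 h, was 2.39 log2 from WT at LPS 1 h and 0.54 from WT at LPS 3 h. The p50KO LPS 3 h array lay 0.65 from WT at 3 h, and the p50KO LPS 8 h array 0.91 from WT at 8 h and 0.96 from WT at 3 h. The LPS and p50 results below that use the 1 h arrays are therefore followed by their values without them, and the array is called by its label. The mean level of 9 interferon response genes was 13.1, 13.7 and 13.6 in p50KO macrophages after 1, 3 and 8 h of LPS. In WT macrophages it was 8.60, 12.9 and 13.7. By these genes p50KO at 1 h lay nearest to WT at 3 h, and p50KO at 3 h to WT at 8 h. Whether genotype or time underlies this was not tested.

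LPS raised all 3 genes in macrophages, and CpG and IFNb raised none of them past the test. Ptgs2 rose first: it was already higher at 1 h, while Ptges and Nos2 passed the test at 3 and 8 h. In p50KO macrophages Ptgs2 stood at 6.43, 7.33 and 8.83 after 1, 3 and 8 h of LPS, against 4.41 unstimulated. In WT macrophages it stood at 5.87, 6.19 and 7.77, against 4.37 and 4.44 unstimulated. Every LPS array was thus above every unstimulated array, and none of the unstimulated, CpG or IFNb arrays of either genotype was above background for Ptgs2. Over both genotypes the response was 1.69 ± 0.27 at 1 h (SE, adjusted p = 0.00133), 2.30 ± 0.27 at 3 h (adjusted p = 5.28e-05) and 3.84 ± 0.27 at 8 h (adjusted p = 4.35e-07; limma, Benjamini-Hochberg over 9161 genes). Since no unstimulated array was above background, these are at least 1.94-, 2.96- and 8.60-fold. With the array series as a block, the 1 h response was 1.55 ± 0.37 and missed the threshold (adjusted p = 0.0687). With the authors' normalized values all 3 responses were smaller, 0.87 ± 0.24, 1.23 ± 0.24 and 2.54 ± 0.24, and passed (adjusted p from 2.29e-05 to 0.0365), so these bounds hold for the normalization used here. Of all genes tested, 3.66% were higher at 1 h, 17.3% at 3 h and 19.5% at 8 h, so a call at 1 h was less common than one at the later times.

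Ptges climbed later and further. Its level was 7.30, 11.65 and 11.13 after 1, 3 and 8 h of LPS in p50KO macrophages, against 5.01 unstimulated. WT macrophages had 5.22, 7.19 and 10.52 after 1, 3 and 8 h, against 5.21 and 4.99 unstimulated. The WT array at 1 h was close to the unstimulated WT arrays, and both genotypes were far above it at 8 h. The response over both genotypes was 1.04 ± 0.77 at 1 h (adjusted p = 0.375), 4.21 ± 0.77 at 3 h (adjusted p = 0.000984) and 5.61 ± 0.77 at 8 h (adjusted p = 7.86e-05, limma). The last is 48.8-fold, although only 1 of the 3 unstimulated arrays, a WT array, was above background for Ptges.

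Nos2 kept a similar time course, except in the order of the genotypes. In p50KO macrophages it stood at 6.68, 9.83 and 9.06 after 1, 3 and 8 h of LPS, against 4.48 unstimulated. WT macrophages had 4.67, 8.07 and 10.5 at these times, against 4.45 and 4.89 unstimulated. WT cells at 1 h were not above background, so the p50KO array labelled 1 h was the only one of that time with a measured level. The response was 1.05 ± 0.53 at 1 h (adjusted p = 0.199), 4.32 ± 0.53 at 3 h (adjusted p = 9.23e-05) and 5.15 ± 0.53 at 8 h (adjusted p = 1.48e-05, limma), or at least 13.5- and 24.1-fold at 3 and 8 h. Without the 1 h arrays, the 3 and 8 h responses of all 3 genes still passed (largest adjusted p 0.000650, for Ptges at 3 h). Granulocyte markers also moved with the series: their summed linear level was 933 to 2123 on p50KO LPS arrays and 1233 to 3315 on WT LPS arrays, against 284 on the unstimulated p50KO array and 189 and 1175 on the unstimulated WT arrays, and their part in the LPS responses was not tested. In RNA of whole cultures, fewer cells of a type and less RNA per cell cannot be told apart.

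**Figure D1:**
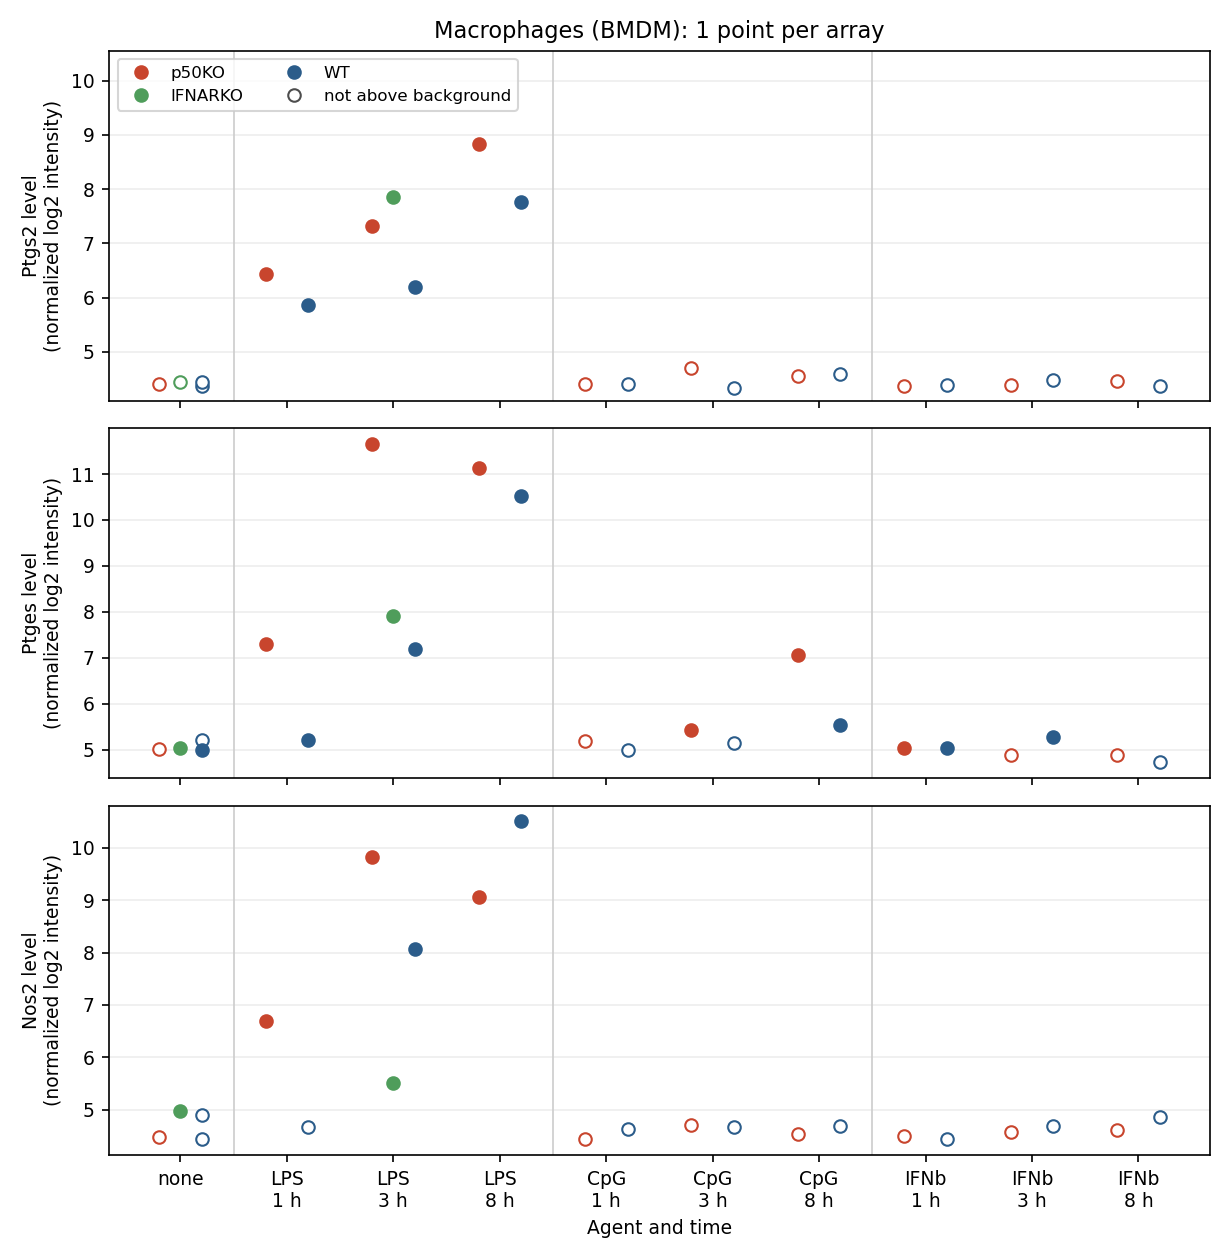
Level of Ptgs2, Ptges and Nos2 (normalized log2 intensity, 1 panel per gene) on each macrophage array, by agent and time, with p50KO, IFNARKO and WT from left to right and open circles for arrays not above background. Ptgs2 and Nos2 have filled circles almost only with LPS, Ptges is highest on the p50KO LPS 3 h array at 11.65, and Nos2 is lowest among the LPS 3 h arrays in IFNARKO cells at 5.51.

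CpG and IFNb left these genes near the background. Of 9 tests of a CpG response (3 genes at 3 times) 0 passed, also at an unadjusted p under 0.05, and so it was for the 9 tests of an IFNb response (limma). Few genes responded to CpG at all by this test, 0% at 1 h, 0.109% at 3 h and 0.426% at 8 h, so a missed call says little there. With IFNb these shares were 0% at 1 h, 0.786% at 3 h and 0.0982% at 8 h. The largest response to CpG was that of Ptges at 8 h, 1.09 ± 0.77 (adjusted p = 0.990). It came from the p50KO array, at 7.06 against 5.01 unstimulated, while the WT array stood at 5.54 against 5.21 for the unstimulated WT array of its series. The p50KO CpG 8 h array was above background for Ptges, as were the p50KO CpG 3 h array (5.43) and the WT CpG 8 h array (5.54), and the first was at least 3.49-fold above the unstimulated p50KO level. With IFNb, Ptges ran from 4.88 to 5.03 in p50KO and from 4.73 to 5.27 in WT macrophages, close to the unstimulated levels. IFNb itself acted on these cells. The mean level of 9 interferon response genes was 12.5 in p50KO and 12.4 in WT macrophages after 3 h of IFNb. Unstimulated, it was 9.28 on the p50KO array, labelled CpG, and 6.54 and 8.68 on the WT arrays labelled LPS and CpG.

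Set directly against the other agents at the same time, LPS gave higher levels of each gene at 3 and 8 h in all 12 tests (limma, adjusted p from 1.14e-06 to 0.00534). LPS exceeded IFNb at 8 h by 3.88 ± 0.29 for Ptgs2, 6.02 ± 0.84 for Ptges and 5.05 ± 0.58 for Nos2. As bounds these are at least 9.74-, 56.1- and 27.3-fold, as neither IFNb array was above background for any of the 3 genes. LPS exceeded CpG at 8 h by 3.72 ± 0.29 for Ptgs2, 4.52 ± 0.84 for Ptges and 5.18 ± 0.58 for Nos2. Among all genes, 5.31% at 3 h and 16% at 8 h were higher with LPS than with IFNb, and 17% and 16.1% at these times higher with LPS than with CpG. LPS and CpG arrays lie in different series, and agent and series cannot be told apart except through the unstimulated WT arrays. With the series as a block, the difference at 3 h was 2.04 ± 0.47 for Ptgs2 (adjusted p = 0.0910), 3.82 ± 1.40 for Ptges (adjusted p = 0.202) and 3.75 ± 0.96 for Nos2 (adjusted p = 0.114), and at 8 h Ptges also missed the threshold (4.21 ± 1.40, adjusted p = 0.0871).

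Loss of p50 went with more Ptges and more Ptgs2 in macrophages given LPS. Averaged over 1, 3 and 8 h of LPS, Ptges was 2.38 ± 0.52 log2 higher in p50KO than in WT macrophages (5.21-fold, adjusted p = 0.0318, limma). Ptgs2 was 0.92 ± 0.15 higher (1.89-fold, adjusted p = 0.00992). These SE come from the fit of all 21 p50KO and WT arrays, with CpG and IFNb, and not from the spread of the 3 LPS differences alone. None of the unstimulated, CpG or IFNb arrays was above background for Ptgs2. Its SE may therefore understate the spread of expressed Ptgs2, and its p-value may be too small. Of all genes tested, 2.35% were higher in p50KO macrophages given LPS and 4.92% differed in either direction. Ptgs2 exceeded its WT level by 0.56, 1.14 and 1.06 at 1, 3 and 8 h. Its call was lost with median scaling (adjusted p = 0.0518) and without the IFNb arrays (adjusted p = 0.0608). The Ptges difference depended on the time: it was 2.08 at 1 h, 4.46 at 3 h and 0.61 at 8 h, or 4.22-, 22.1- and 1.52-fold. The p50KO arrays at 3 and 8 h (11.65 and 11.13) were both above every WT LPS array, the highest of which stood at 10.52, whereas p50KO at 1 h (7.30) lay beside WT at 3 h (7.19). The same held for 11% of all genes tested.

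The other Ptges probe gave the same picture at 1 and 3 h, but not at 8 h. ILMN_2616028 read 6.11, 10.29 and 8.94 in p50KO macrophages after 1, 3 and 8 h of LPS, against 4.38, 5.93 and 9.08 in WT macrophages. Its difference was 1.73, 4.36 and -0.14, with WT at 1 h not above background, so at 8 h the probes differed in sign and the genotypes were within 0.61 log2 of each other by either. Without the 1 h arrays, Ptges was higher by 2.54 ± 0.66 but missed the threshold (adjusted p = 0.0542), and Ptgs2 passed (1.10 ± 0.16, adjusted p = 0.00452). The Ptges call was also lost without the 3 h arrays, where the value fell to 1.34 ± 0.36 (adjusted p = 0.0744), without the CpG arrays (adjusted p = 0.0869), without the IFNb arrays (adjusted p = 0.115) and with dim genes kept (adjusted p = 0.0871).

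Nos2 was not shifted one way by the loss of p50. It was higher in p50KO than in WT macrophages by 2.02 at 1 h and 1.75 at 3 h of LPS and lower by 1.44 at 8 h (-1.44 log2), with a mean of 0.78 ± 0.49 (adjusted p = 0.378, limma). At 1 h WT cells were at background, and p50KO cells were at least 3.16-fold higher. Without the 8 h arrays of both genotypes the difference was 1.88 ± 0.18 (adjusted p = 0.000454), and without the 1 h arrays it was 0.16 ± 0.52 (adjusted p = 0.902). The fit without 8 h keeps the array labelled p50KO, LPS 1 h, that stood apart. Its SE also draws on the unstimulated, CpG and IFNb arrays, none of them above background for Nos2. It may therefore understate the spread of expressed Nos2. With CpG the p50 difference was 0.67 ± 0.52 for Ptges, 0.11 ± 0.15 for Ptgs2 and -0.09 ± 0.49 for Nos2, and with IFNb -0.09 ± 0.52, -0.01 ± 0.15 and -0.10 ± 0.49 in the same order of genes. All 6 missed the threshold, with 0 at an unadjusted p under 0.05 and 0.327% of genes called with CpG and 0.0327% with IFNb.

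For Ptges the CpG value came mostly from 8 h, where p50KO exceeded WT macrophages by 1.53 log2 (2.88-fold), against 0.19 at 1 h and 0.29 at 3 h. The same p50KO array had a mean of 11.6 over 9 interferon response genes, against 8.89 in WT macrophages after CpG for 8 h. Unstimulated cells of the CpG series had 9.28 (p50KO) and 8.68 (WT). Whether the p50 difference was larger with LPS than with another agent was tested directly. For Ptges it was larger than with IFNb by 2.47 ± 0.74 (adjusted p = 0.327) and than with CpG by 1.71 ± 0.74 (adjusted p = 0.473), and for Ptgs2 by 0.93 ± 0.21 (adjusted p = 0.209) and 0.80 ± 0.21 (adjusted p = 0.215). None of 9 such tests passed, although 4 had an unadjusted p under 0.05 (of all genes, 0.0437% were called between LPS and IFNb, 0.229% between LPS and CpG and 0.0218% between CpG and IFNb). These calls depended on the arrays: without the LPS 1 h arrays the Ptgs2 difference from IFNb passed (1.10 ± 0.21, adjusted p = 0.0397), and without the LPS 8 h arrays so did those of Ptges (3.36, adjusted p = 0.0207) and Nos2 (1.98, adjusted p = 0.00542) from IFNb and that of Nos2 from CpG (1.98, adjusted p = 0.00492). For Ptgs2 and Nos2 no CpG or IFNb array was above background, so the error of these fits may understate the spread of the expressed genes. Over all 10 matched conditions, Ptges was higher in p50KO macrophages in 7, by a mean of 0.85 ± 0.37 (adjusted p = 0.299), and Ptgs2 in 7, by 0.30 ± 0.13 (adjusted p = 0.292), while Nos2 was higher in 4 (0.15 ± 0.26, adjusted p = 0.822). Without the LPS 1 h arrays these means were 0.72 ± 0.38 for Ptges (adjusted p = 0.449), 0.27 ± 0.14 for Ptgs2 (adjusted p = 0.431) and -0.054 ± 0.22 for Nos2 (adjusted p = 0.942). Over these conditions 0.448% of genes were called.

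**Figure D2:**
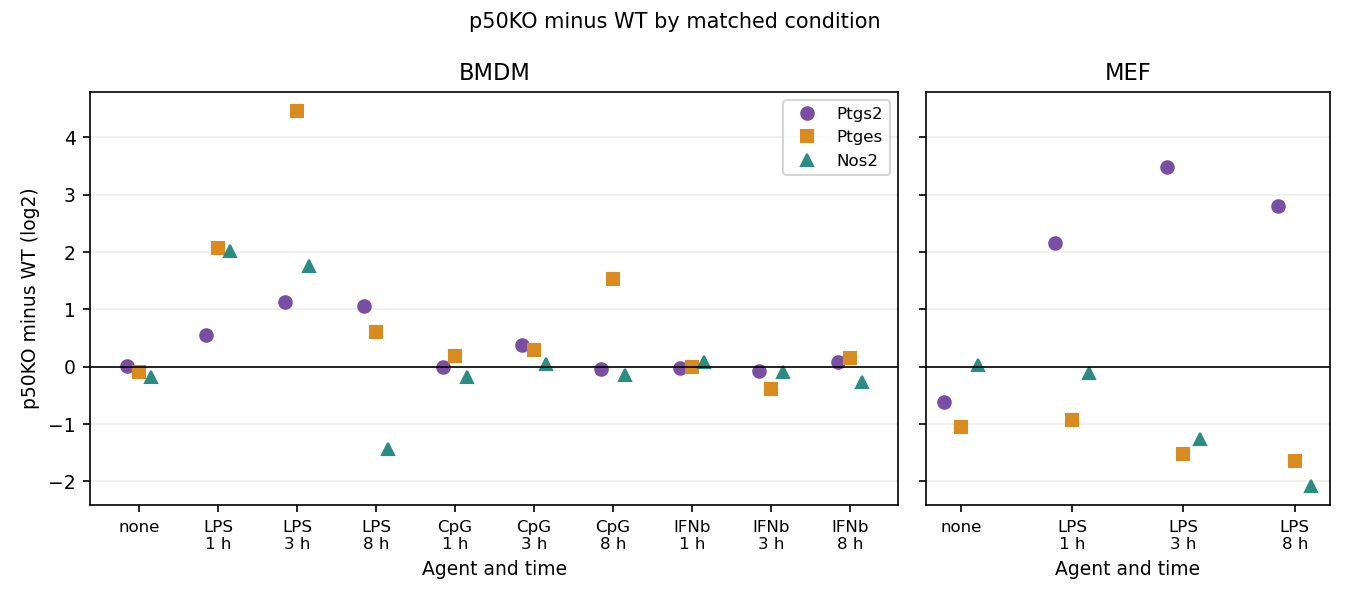
Difference p50KO minus WT (log2) of each gene in each matched condition, for macrophages on the left and fibroblasts on the right, with 1 array per genotype except unstimulated WT, which is the mean of 2. The Ptges points reach 4.46 in macrophages at LPS 3 h and lie at or below -0.92 in all fibroblast conditions, and the Nos2 points turn from 2.02 at LPS 1 h to -1.44 at LPS 8 h in macrophages.

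Without the interferon receptor, the induction by 3 h of LPS was lower for Nos2 and higher for Ptgs2 than in WT macrophages. These groups had 1 array each and no test. Nos2 stood at 5.51 in IFNARKO macrophages given LPS, against 4.97 unstimulated, both above background, and at 8.07 in WT macrophages given LPS, against 4.89 on the unstimulated array of the same series. The ratio of LPS to unstimulated Nos2 was 1.46 in IFNARKO cells, a step smaller than the residual SD of 0.68, and 9.10 in WT cells. The inductions differed by -2.64 log2, and by -1.55 log2 with the authors' normalized values. As the unstimulated WT array was not above background, the WT induction was at least 8.46-fold. Of the 608 genes that LPS raised at least 2-fold in WT cells at 3 h (6.64% of those tested), 28.6% had at least 2-fold less induction in IFNARKO cells. Nos2 was 31st from the lowest. These genes were chosen by the same WT arrays that enter the difference, which by itself can draw their differences below 0. Their median was -0.47, and the part of that choice in it was not tested. The share and the rank thus only describe where Nos2 lies.

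Ptgs2 went the other way. It stood at 7.86 in IFNARKO macrophages given LPS, against 4.44 unstimulated, and at 6.19 in WT macrophages given LPS, against 4.44 unstimulated. Both LPS arrays were above background, and the level was 3.19-fold higher in IFNARKO than in WT cells (1.67 log2). Neither unstimulated array was above background, so the induction was at least 7.86-fold in IFNARKO and at least 2.29-fold in WT cells. By measured values, 3.78% of the 608 genes had an induction at least 2-fold greater in IFNARKO cells, Ptgs2 among them. The IFNARKO array at 3 h (7.86) was close to WT at 8 h (7.77) and above p50KO at 3 h (7.33). Ptges stood at 7.90 in IFNARKO macrophages given LPS, against 5.04 unstimulated, and at 7.19 in WT macrophages given LPS, against 4.99 unstimulated. Its induction was 7.27-fold in IFNARKO and 4.58-fold in WT cells by this probe (0.67 log2 higher). The other Ptges probe, which was not above background in unstimulated cells, read 5.38 in IFNARKO and 5.93 in WT macrophages given LPS, so the direction for Ptges depended on the probe.

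Interferon response genes had a mean level (9 genes) of 8.66 in IFNARKO and 12.9 in WT macrophages after 3 h of LPS, and 4.86 in IFNARKO and 6.54 in WT unstimulated macrophages, so that they rose with LPS in IFNARKO cells as well. Among them Isg15 rose by 5.69 log2 in IFNARKO and 5.65 log2 in WT cells, and Rsad2 by 7.74 and 6.54. The others rose less in IFNARKO than in WT cells: Mx1 by 0.28 and 6.66, Irf7 by 0.0066 and 4.30 and Usp18 by 1.10 and 4.54. Likewise Ifit2 rose by 2.49 and 6.25, Ifit3 by 2.15 and 5.66, Oasl1 by 6.22 and 7.23, and Cxcl10 by 8.54 and 10.2. Macrophage markers summed to 59976 on the IFNARKO LPS array and 47305 to 53883 on WT LPS arrays, and granulocyte markers to 1634 and 1233 to 3315; their part in these differences was not tested. Although Nos2 induction was lower without the receptor, IFNb alone for 1, 3 or 8 h did not bring Nos2 above background in p50KO (4.50, 4.58 and 4.60) or WT macrophages (4.43, 4.68 and 4.87).

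**Figure D3:**
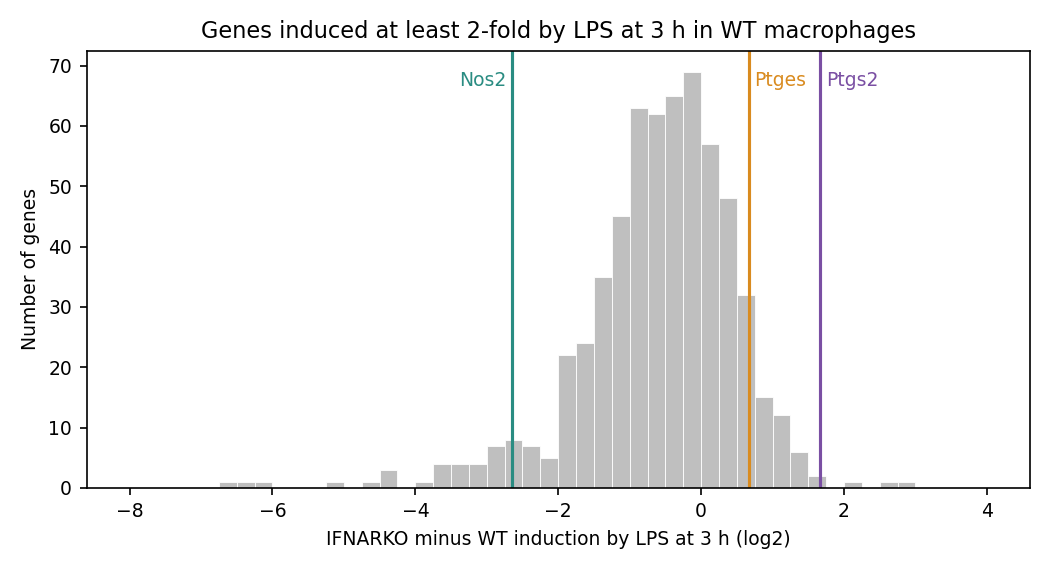
Histogram of the difference IFNARKO minus WT in the log2 induction by LPS at 3 h, over the 608 genes induced at least 2-fold in WT macrophages, with vertical lines for the 3 genes. The median is -0.47, and Nos2 lies at -2.64, Ptges at 0.67 and Ptgs2 at 1.67.

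Ordered by level in macrophages, Ptgs2 ran p50KO LPS 8 h (8.83), IFNARKO LPS 3 h (7.86), WT LPS 8 h (7.77), p50KO LPS 3 h (7.33), p50KO LPS 1 h (6.43), WT LPS 3 h (6.19) and WT LPS 1 h (5.87), followed by all other groups between 4.33 and 4.70. The residual SD of the fit of condition and genotype was 0.31. That fit leaves out the IFNARKO arrays, and its SD also holds any change of the p50 difference between conditions. It serves here as a scale for the steps and not as a test. IFNARKO LPS 3 h lay within that SD of WT LPS 8 h, and p50KO LPS 1 h within it of WT LPS 3 h. For Ptges the residual SD was 1.00, and only the steps from WT LPS 8 h (10.52) down to IFNARKO LPS 3 h (7.90) and from p50KO CpG 8 h (7.06) down to WT CpG 8 h (5.54) exceeded it. Nos2 was led by WT LPS 8 h (10.5) and p50KO LPS 3 h (9.83), which lay within its residual SD of 0.68 of each other. Below them came p50KO LPS 8 h (9.06), WT LPS 3 h (8.07) and p50KO LPS 1 h (6.68), each apart by more than that SD. IFNARKO LPS 3 h (5.51) followed, within that SD of the unstimulated IFNARKO level.

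In fibroblasts the p50 difference of Ptges had the opposite sign. Ptges was 4.88 unstimulated and 4.79, 5.32 and 7.10 after 1, 3 and 8 h of LPS in p50KO fibroblasts. In WT fibroblasts it was 5.56 and 6.32 unstimulated and 5.71, 6.84 and 8.74 after 1, 3 and 8 h of LPS. Each p50KO array was below the WT array of its condition. At LPS 3 and 8 h both genotypes were above background, whereas at LPS 1 h neither was, and of the unstimulated arrays only the WT array at 6.32 was. The difference was -1.06 unstimulated and -0.92, -1.53 and -1.65 with LPS, with a mean of -1.27 ± 0.20 over the 4 conditions (adjusted p = 0.00383, limma), of which the values at LPS 3 and 8 h are the ones measured on both sides. Of all genes, 54.5% differed between p50KO and WT fibroblasts, 25.6% higher and 28.9% lower in p50KO cells, so that a call here says little about any gene. The number of probes above background moved with genotype too, at 11735 to 12389 on p50KO arrays and 8266 to 10089 on WT arrays, and its part in this difference was not tested.

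Ptgs2 was above background on every p50KO fibroblast array, at 5.38 unstimulated and 6.84, 8.63 and 9.08 after 1, 3 and 8 h of LPS. In WT fibroblasts of the LPS series it was 4.46 unstimulated and 4.68, 5.14 and 6.27 after 1, 3 and 8 h, above background only at 8 h. The unstimulated WT array of the IFNb series stood apart at 7.51. Within the LPS series each p50KO array given LPS was thus above the WT array of its condition. The difference was at least 1.40-fold at LPS 1 h and 5.53-fold at 3 h, where WT was not above background, and 2.81 log2 at 8 h. Unstimulated p50KO cells read higher too, but their level lay below the lowest one called above background in the WT cells, so no direction was measured. Against the mean of both unstimulated WT arrays the unstimulated difference was -0.61, and the mean over the 4 conditions was 1.76 ± 0.88 (adjusted p = 0.131) with that WT array and 2.34 ± 0.36 (adjusted p = 0.000892) without it. That array and the WT IFNb array also had the highest macrophage markers, a summed level of 12498 and 10124 against 3424 to 5273 on p50KO arrays and 3526 to 5920 on the other WT arrays, and the highest fibroblast markers (53034 and 52739, against 34096 to 35334 on p50KO and 25246 to 29589 on the other WT arrays). The part of either in the Ptgs2 level was not tested.

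Nos2, read by ILMN_1223499, was above background on 1 p50KO and 1 WT fibroblast array, both at LPS 8 h. The other Nos2 probe of these arrays, ILMN_1251581, was above background on 0 of 10. It read 4.66 in p50KO and 5.02 in WT fibroblasts at LPS 8 h, so the values below rest on ILMN_1223499 alone. By that probe Nos2 was 4.60 unstimulated and 4.55, 4.72 and 5.35 after 1, 3 and 8 h of LPS in p50KO fibroblasts. It was 4.65 and 4.47 unstimulated and 4.67, 5.99 and 7.43 after 1, 3 and 8 h of LPS in WT fibroblasts, and at 8 h, where both were above background, p50KO was lower by 2.08 log2 (-2.08). The p50KO minus WT difference was -0.79 ± 0.36 (adjusted p = 0.103), and -0.88 ± 0.33 (adjusted p = 0.0421) without the unstimulated WT array of the IFNb series. Over both genotypes, 8 h of LPS raised Ptges by 2.55 ± 0.28 (adjusted p = 0.00328, with 1 of 3 unstimulated arrays above background) and Nos2 by 1.95 ± 0.48 (adjusted p = 0.0498), at least 1.80-fold for Nos2, while 6.46% of genes were higher. The Nos2 call was lost in 5 alternative fits, with adjusted p up to 0.106. The Ptgs2 response at 8 h was 1.60 ± 1.19 (adjusted p = 0.434), and 2.76 ± 0.51 (adjusted p = 0.00596) without the WT array that stood apart. At 1 and 3 h none of the 3 genes passed, with 1 of 6 tests at an unadjusted p under 0.05 (Ptges at 3 h) and 0.176% and 3.12% of genes higher. IFNb for 8 h changed Ptgs2 by 0.39, Ptges by 0.07 and Nos2 by 0.01 log2 in WT fibroblasts (1 array each, no test), while 4.08% of genes were at least 2-fold higher.

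**Figure D4:**
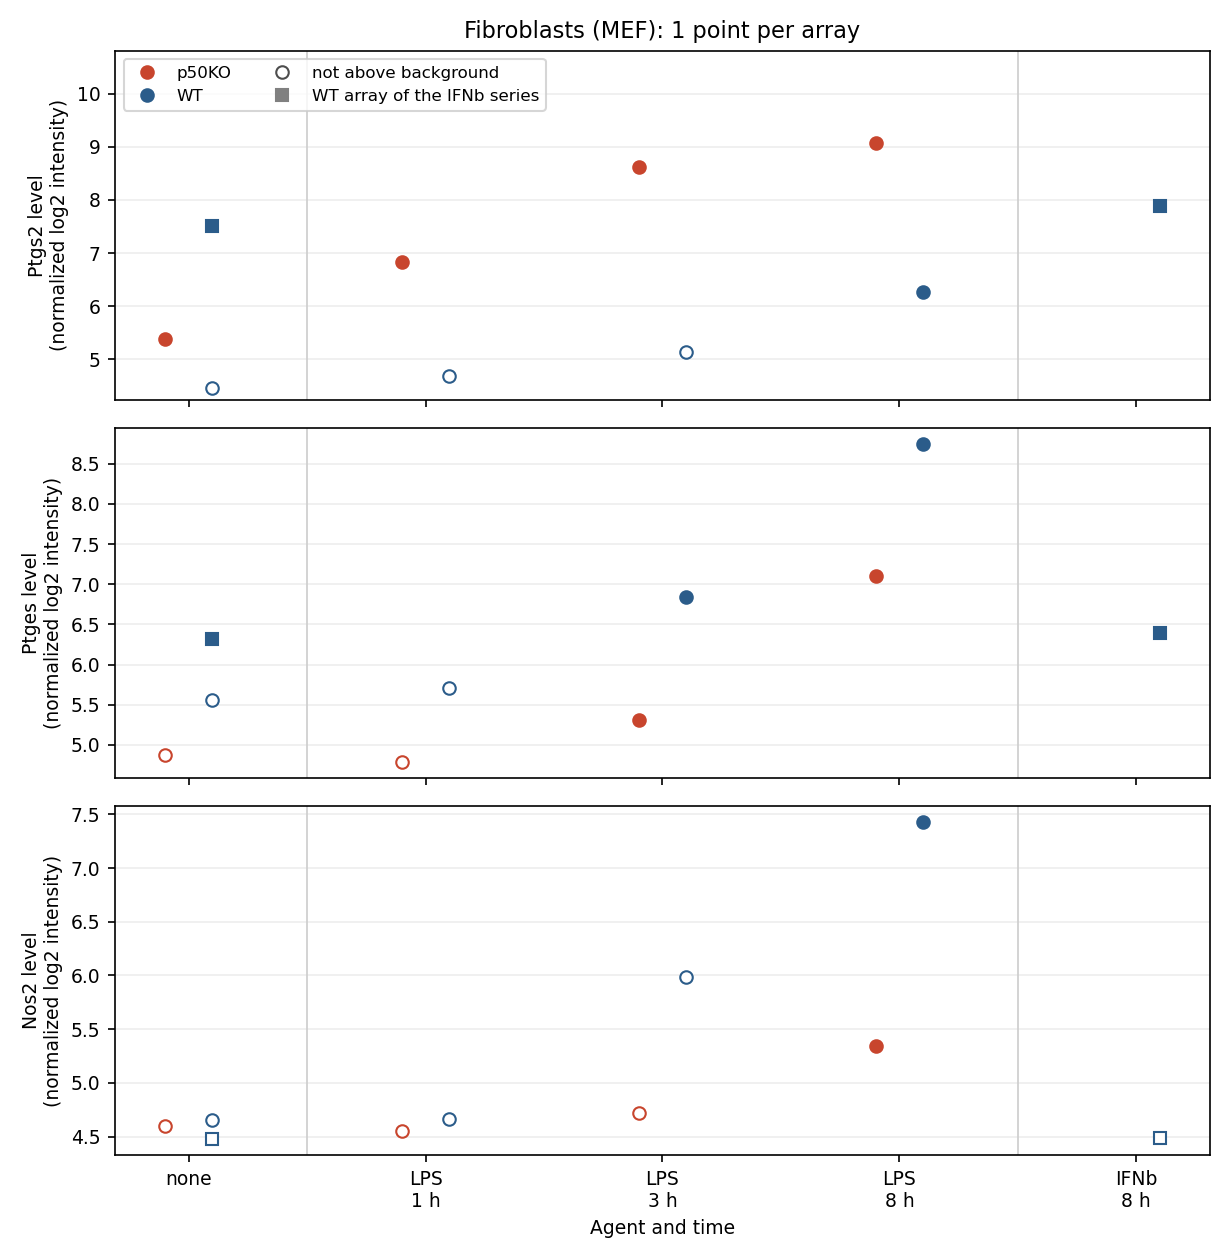
Level of each gene (normalized log2 intensity) on each fibroblast array, with p50KO left of WT, squares for WT arrays of the IFNb series and open symbols for arrays not above background. By plotted level Ptges is lower and Ptgs2 higher in p50KO than in the WT arrays of the LPS series at every condition, also where open symbols give no measured level. The unstimulated WT square for Ptgs2 lies at 7.51, above the circle at 4.46.

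The genes around these enzymes were listed apart from the 3 members. Of 19 genes of nitric oxide synthesis and arginine and cofactor supply, 13 were tested in macrophages, and 8 h of LPS raised 6 and lowered 2 (limma, median 0.43, against -0.07 over all genes, of which 47.3% were called). Those that rose most were Slc7a2, a transporter of arginine (3.10 ± 0.45, adjusted p = 0.000107), Ass1, which rebuilds arginine from citrulline (3.10 ± 0.61, adjusted p = 0.000916), Gch1, the first enzyme of tetrahydrobiopterin synthesis (2.67 ± 0.28, adjusted p = 1.75e-05), and the arginase Arg2 (1.88 ± 0.34, adjusted p = 0.000556). Of these, Ass1 (1.70 ± 0.36, adjusted p = 0.0288) and Gch1 (0.95 ± 0.20, adjusted p = 0.0279) were higher in p50KO than in WT macrophages given LPS, and the other 11 of the 13 did not pass, beside 4.92% of all genes called. Without the LPS 1 h arrays both missed the threshold (Ass1 1.54 ± 0.45, adjusted p = 0.0783, and Gch1 0.71 ± 0.22, adjusted p = 0.0908).

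Of 22 prostaglandin genes 11 were tested, and at 8 h of LPS 1 rose and 4 fell (median -0.27), a share near the 47.3% of all genes called. Ptgir, the prostacyclin receptor, rose (1.79 ± 0.27, adjusted p = 0.000147). Hpgd, which inactivates prostaglandins (-3.16 ± 0.54, adjusted p = 0.000340), Hpgds, a synthase of prostaglandin D (-1.46 ± 0.27, adjusted p = 0.000546), and Ptger3, a receptor of prostaglandin E (-1.43 ± 0.34, adjusted p = 0.00326), fell. In the lipoxygenase arm, which makes leukotrienes from the same arachidonic acid, 1 of 5 tested genes rose and 3 fell, beside the same 47.3%. They were Ltc4s (-1.29 ± 0.27), Alox5 (-1.15 ± 0.27) and its activating protein Alox5ap (-0.83 ± 0.16), with adjusted p from 0.000831 to 0.00312, and Alox12 rose (0.73 ± 0.20, adjusted p = 0.00754). None of the 11 prostaglandin and 5 lipoxygenase genes passed the test between p50KO and WT macrophages given LPS (limma, 2 and 0 at an unadjusted p under 0.05), with 4.92% of all genes called, so a count of 0 among so few says little. Of these, Ptgir had 0.77 ± 0.25 (adjusted p = 0.101) and Ptges2, another prostaglandin E synthase, -0.54 ± 0.18 (adjusted p = 0.0981).

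**Figure D5:**
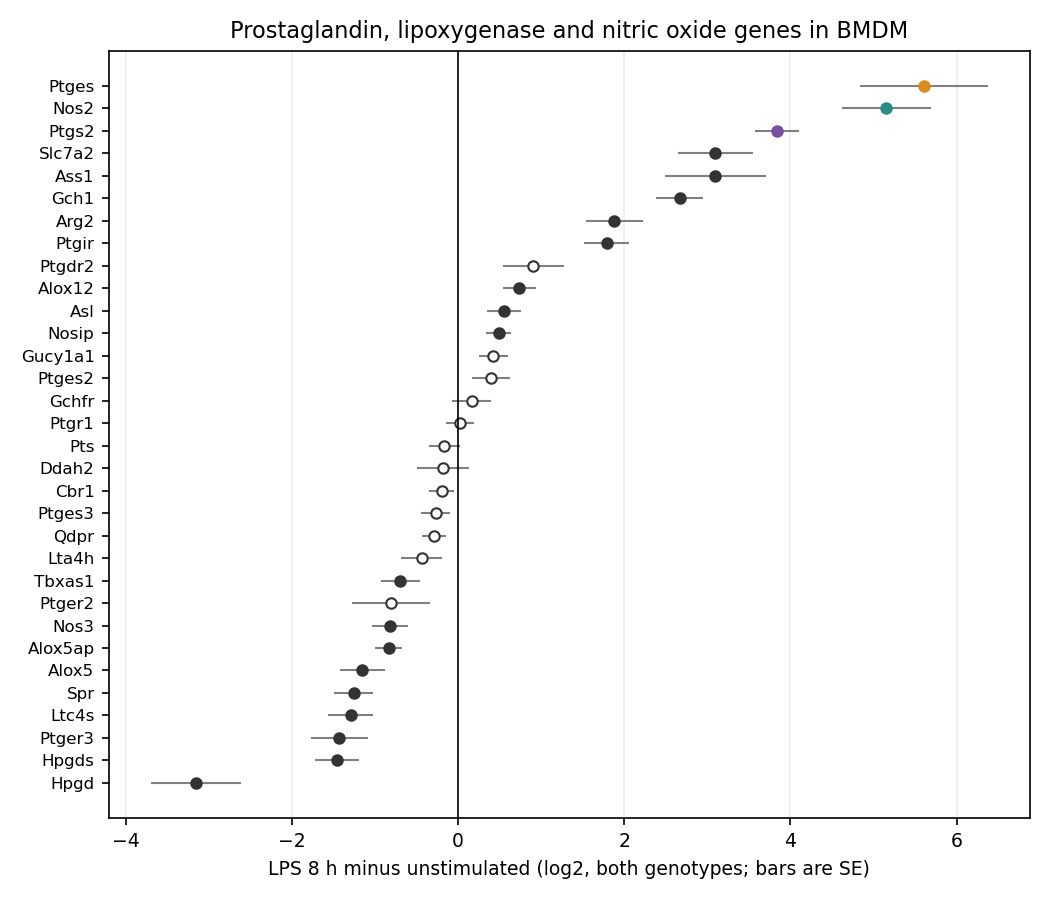
Response to 8 h of LPS over both genotypes (log2, LPS minus unstimulated, with SE bars) of the tested macrophage genes of the 3 lists and the 3 members. Filled circles have an adjusted p under 0.05: Ptges (5.61), Nos2 (5.15) and Ptgs2 (3.84) are at the top, and Hpgd (-3.16) is at the bottom.

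Of the 29 listed genes tested in macrophages, 5 were induced at least 2-fold by LPS at 3 h in WT cells. Of these 5, Ptgdr2, a receptor of prostaglandin D, had at least 2-fold less induction in IFNARKO cells (-0.058 log2 in IFNARKO, 1.33 in WT), beside 28.6% of all genes so induced. Ptger2, a receptor of prostaglandin E (1.53 in IFNARKO, 0.65 in WT), and Ptgir (1.41 in IFNARKO, 0.84 in WT) were induced under 2-fold in WT cells and so were not among the 5; they were named after their values were seen. Slc7a2 (3.56 in IFNARKO, 2.83 in WT), Arg2 (2.94 and 2.31), Gch1 (1.58 and 1.97) and Ass1 (0.93 and 1.83) differed by less than 2-fold between the genotypes. In fibroblasts 4 of 15 tested nitric oxide genes rose at 8 h of LPS and 1 fell (12% of all genes were called). Gch1 (4.69 ± 0.51, adjusted p = 0.00328), Arg2 (3.15 ± 0.19, adjusted p = 0.000369) and Slc7a2 (2.85 ± 0.53, adjusted p = 0.0201) rose and Gucy1a1, a subunit of the nitric oxide receptor guanylate cyclase, fell (-3.36 ± 0.57, adjusted p = 0.0150). Ptgir rose there too (3.04 ± 0.14, adjusted p = 0.000155). Between p50KO and WT fibroblasts, 2 of these 15 genes were higher and 4 lower in p50KO cells, beside the 54.5% of all genes called. Ass1 was lower (limma, -1.20 ± 0.10, adjusted p = 0.000814), the opposite sign to macrophages given LPS, as for Ptges. Gch1 kept the sign it had in macrophages given LPS (0.54 ± 0.38, adjusted p = 0.263), as did Ptgs2 (1.76 ± 0.88, adjusted p = 0.131), and neither passed.

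Across the 23 macrophage arrays, the levels of Ptges and Nos2 had a Pearson correlation of 0.92, Ptgs2 and Ptges 0.90, and Ptgs2 and Nos2 0.84. These and the following are descriptions over arrays that share agents, series and times, and most of their spread is that between LPS and other arrays. Most alike to Ptgs2 among 9160 genes were Kcnrg (0.98), Wfdc21 (0.98), the cytokine gene Il1a (0.96), the adhesion molecule gene Vcam1 (0.96) and the interleukin 1 receptor antagonist gene Il1rn (0.95). Ptges was most like Apol7c (0.98), Adhfe1 (0.98), Rasgrp1 (0.98), Lox, a collagen crosslinking enzyme (0.97), and Ciita, a regulator of MHC class II genes (0.97). Nos2 was most like the chemokine gene Ccl8 (0.99), the proteoglycan gene Vcan (0.98), Cd200 (0.98), Slc28a2 (0.97) and Mxd1 (0.97). The 3 members shared none of these 5 genes, and 56, 105 and 73 genes exceeded 0.9 with Ptgs2, Ptges and Nos2.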

How the data were processed

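Values used were bead intensities per probe, which the authors deposited unnormalized, together with detection p-values in a neighbouring column, per the file headers. BeadStudio is named in the submitters' processing notes, with no version. A second deposited set of intensity values, normalized by the authors by an unstated method, served as an alternative. The number of arrays limits the precision.

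Background was corrected with limma's nec (negative controls inferred from detection p-values, offset 16), and arrays were quantile normalized separately for BMDM (25697 probes) and MEF (24599 probes) and put on log2. To be tested, a gene had to have a probe above background (detection p under 0.01) on 2 or more arrays, and the brightest probe stood for a gene. Probe symbols of the platform annotation were brought up to date with a GRCm38.p6 gene table, which held 23962 BMDM and 20958 MEF probes. A single symbol was given for 23978 BMDM and 20974 MEF probes, several for 0 and 1, and none for 1719 and 3624. Lines with no values were dropped (8 for BMDM). Labels put WT unstimulated BMDM replicate 1 in the CpG and replicate 2 in the LPS series, and MEF replicate 1 in the LPS and replicate 2 in the IFNb series.

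Tests were two-sided limma fits (lmFit, eBayes) over all tested genes with Benjamini-Hochberg adjustment, called under 0.05. Only the p50 differences over all matched conditions were tried on simulated data, in which the p50 effect did not change between conditions. Differences between genotypes took condition as a factor, with the spread between conditions as error. At least N-fold values set a group's mean against the higher of the dim probe and the lowest probe above background on each dim array. Members and lists were chosen with earlier results of these data known. Named pathway genes were up to 4 per list and comparison, called ones first, by size; likewise the 5 genes most correlated with each member. Alternatives changed normalization, background correction, probe choice, filter, series, and left-out arrays. Software was R 4.3.3, limma 3.58.1, statmod 1.5.0, Python 3.11.15, numpy 2.4.6, pandas 2.3.3 and matplotlib 3.10.9.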

Additional observations from a re-analysis of the deposited data

Results flagged for a closer look

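The p50KO minus WT difference of Ptges with LPS, as the mean over 1, 3 and 8 h, was 2.38 log2 in macrophages and -1.37 log2 in fibroblasts. It stood out because the values at 1, 3 and 8 h were above 0 in macrophages (2.08, 4.46 and 0.61) and below 0 in fibroblasts (-0.92, -1.53 and -1.65). At 1 h Ptges was not above background in fibroblasts of either genotype, so the opposite direction is measured at 3 and 8 h only. The difference between the cell types was not tested, since their arrays were normalized apart and Ptges was read by different probes. The probe used in fibroblasts, ILMN_2616028, gave 1.73, 4.36 and -0.14 at these times in macrophages, so with the same probe the 8 h values were both below 0.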

How the results depend on the processing

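No paired analysis was possible because the labels carry no replicate numbers shared between groups; p50KO and WT arrays were matched by condition as a factor, and the array series was fitted as a block. Of 680 values recomputed under the alternatives, 625 kept their direction and their side of the threshold (for counts, stayed within 1.5 times). Causes were not tested except where fewer arrays or more genes entered. IFNARKO minus WT induction of Nos2 was -1.55 with the authors' normalized values, and that of Ptgs2 1.99 with median scaling. Genes called over 10 macrophage conditions were 27 with median scaling, 24 with dim genes kept, 10 without the CpG arrays, 614 within the CpG series and 15 within the LPS and IFNb arrays, against 41. Genes called with LPS were 175 (113 higher, 62 lower) with median scaling, 286 with dim genes kept, 693 with the series as a block and without either unstimulated WT array, 257 without the 3 h, 1154 without the 8 h, 95 without the CpG and 55 without the IFNb arrays, against 451 (215 higher, 236 lower). Median scaling also moved the median of all genes by -0.40, -0.54 and -0.34 in the 1, 3 and 8 h LPS responses. Ptgs2 with LPS in p50KO macrophages missed the threshold with median scaling (0.91, adjusted p = 0.0518) and without the IFNb arrays (0.92, adjusted p = 0.0608). For Ptges that value was 2.38 with dim genes kept, without the CpG and without the IFNb arrays, 2.54 without 1 h and 1.34 without 3 h, all missing it (adjusted p 0.00261 to 0.115 over 13 settings), and for Nos2 it was 1.88 and passed without 8 h. With the series as a block, the Ptgs2 response at LPS 1 h (1.55, adjusted p = 0.0687) and LPS minus CpG for Ptgs2 (2.04), Ptges (3.82) and Nos2 (3.75) at 3 h and Ptges (4.21) at 8 h missed it. The p50 difference of Nos2 over 10 conditions was -0.054 without LPS 1 h, -0.026 without LPS 3 h, -0.11 without all LPS arrays and -0.061 within the CpG series, and the CpG minus IFNb difference of Nos2 was -0.027 with no background correction. Between agents, LPS minus IFNb passed for Ptgs2 without LPS 1 h (1.10) and, without LPS 8 h, for Ptges (3.36) and Nos2 (1.98), as did LPS minus CpG for Nos2 (1.98). In fibroblasts, Nos2 at LPS 8 h missed the threshold with the mean of probes (1.95), dim genes kept (1.95), without LPS 1 h (1.98) and without LPS 3 h (1.92). Leaving out WT unstimulated fibroblast replicate 1 or 2 gave p50 differences of 1.58 and 2.34 for Ptgs2 and -0.84 and -0.88 for Nos2, LPS 3 h responses of 0.45 and 1.97 for Ptgs2 and 0.48 and 0.86 for Ptges, and LPS 8 h responses of 1.24 and 2.76 for Ptgs2, each passing only without replicate 2. Nos2 at LPS 8 h was 1.85, missing the threshold, and 1.77, passing it, and the LPS 1 h responses were -0.68 and 0.84 for Ptgs2, -0.35 and 0.030 for Ptges and 0.074 and -0.014 for Nos2, none passing. Genes called in p50KO fibroblasts were 3268 without LPS 1 h and 3105 without LPS 3 h, against 4968. Without the LPS 1 h arrays, a setting added for them after seeing the data, Ass1 (1.54) and Gch1 (0.71) with LPS also missed the threshold. Signal near background limits Ptgs2 and Nos2 to bounds in p50KO and WT macrophages outside LPS, and Nos2 in WT macrophages at LPS 1 h. In fibroblasts it limits Nos2 before 8 h of LPS and with IFNb, and Ptgs2 in WT cells of the LPS series before 8 h. Ptges in fibroblasts is so limited before 3 h of LPS, except on the unstimulated WT array of the IFNb series.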
